A study of Mus musculus with 9 samples.

Results

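Aminoacyl-tRNA synthetases are the enzymes that join each amino acid to its transfer RNA, and their mRNAs were followed here in whole mouse ventricle. Members were found by name in a deposited RNA-seq table of 49585 gene rows. The rule took symbols made of 1 capital letter followed by ars, with or without a final digit 1 or 2, and added Farsa, Farsb, Eprs and Tarsl2. It found 38 genes, and all 38 had coordinates in GENCODE vM21. Names ending in 2, other than Tarsl2, made up the mitochondrial class of 17 genes, and the other 21 made up the cytosolic class. The rule reads names alone, but this group of genes was picked with earlier results of these libraries known.

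The study compared 3 groups of 3 libraries. All mice were male, and their strain was a C57BL/6 and ICR hybrid. Ctrl and Ctrl_HF had the genotype Tcf21iCre/R26 tdTomato, and TTg_HF carried MGTH2A in addition (Tcf21iCre/R26 tdTomato/MGTH2A). Ctrl stayed on normal chow, while Ctrl_HF and TTg_HF received for 15 weeks a high-fat diet with 60% of its energy from fat and drinking water with 1 g/L of L-NAME, which blocks nitric oxide synthases. This treatment models heart failure in which the ejection fraction is preserved. Tamoxifen went to all 3 groups on 5 consecutive days of week 5, in daily doses of 2 mg, per the labels, so Cre was induced in the controls as well. MGTH2A is known, from knowledge outside the labels, to carry Mef2c, Gata4, Tbx5 and Hand2. Tcf21 marks the fibroblast lineage, so Cre acts in that lineage, while the RNA came from the ventricle as a whole after removal of atria and valves. A transgenic group on chow was not analysed here, and no source used here gives the age of the mice. The labels do not say that replicates were separate animals, so p-values measure the spread between libraries, which may be technical.

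Amino acids are joined to their transfer RNAs by separate sets of synthetases in the cytosol and in the mitochondrion, where subunits of the respiratory chain are made. Glutamine is an exception, since mammalian mitochondria make its charged transfer RNA from glutamyl-tRNA. Nearly all of these enzymes are encoded in the nucleus by separate genes for the compartments. Gars and Kars differ from this, since each is known to give both the cytosolic and the mitochondrial enzyme. Eprs joins the glutamyl and prolyl enzymes in a single protein, Farsa and Farsb are the subunits of the cytosolic phenylalanyl enzyme, and Tarsl2 is a cytosolic relative of the threonyl enzyme Tars. Several cytosolic synthetase genes are known targets of Atf4, the transcription factor of the amino acid response, which binds DNA at a composite motif together with C/EBP proteins.

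That motif, TGATGNAA on either strand, was looked for in RefSeq promoter windows of GRCm38.p6 that run from 250 bases before to 50 bases after the transcription start. Windows were matched for 28 members, 14 of each class. The motif occurred in 5 of the 14 cytosolic windows (Aars, Gars, Iars, Tars and Yars), in 0 of the 14 mitochondrial windows and in 3.97% of all 32851 windows. The match nearest to the start in each gene follows in 30 bases, because this is the sequence feature that occurred in the cytosolic class alone among these windows. The matched 8 bases are in capitals, each line runs 5′ to 3′ along the strand of the gene, and TTGCATCA and TTTCATCA are matches read on the other strand.
Aars, chr8:111033840-111033869, plus strand: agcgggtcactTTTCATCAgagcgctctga
Gars, chr6:55037960-55037989, plus strand: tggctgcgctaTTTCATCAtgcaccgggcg
Iars, chr13:49682126-49682155, plus strand: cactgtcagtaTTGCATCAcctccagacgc
Tars, chr15:11399655-11399684, minus strand: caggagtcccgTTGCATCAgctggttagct
Yars, chr4:129189895-129189924, plus strand: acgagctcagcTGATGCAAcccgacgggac
The matches in Tars and Gars began 15 and 30 bases before the start. Those in Yars, Iars and Aars began at bases 4, 8 and 10 of the transcript. The E-box CACGTG, which reads the same on both strands, was found in 4 of the 14 cytosolic windows (Aars, Farsb, Iars and Tars), in the mitochondrial window of Ears2 and in 7.15% of all windows. The NRF1 palindrome, searched on both strands, was in none of the members' windows and in 0.971% of all. A match is a description of letters and does not show binding.

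Whole ventricles gave 6743109 to 9364336 counts per library, so that 1 count was 0.107 to 0.148 counts per 1000000. Levels are given as CPM, the count per 1000000 counts of the library after scaling of the library totals by TMM. All 38 members passed the filter on low counts that kept 12670 genes. Counts per member and library ran from 135 to 1846 in the cytosolic class and from 16 to 2753 in the mitochondrial class. On the first principal component of all genes, with 31.2% of the variance, Ctrl_HF replicates 2 and 3 lay apart at 48.5 and 23.5, against -23.5 to 5.12 for the other 7 libraries. Class medians and calls that moved without 1 of these libraries are given with and without it. Tbx5, a factor of the transgene, was 2.60 higher on the log2 scale in TTg_HF than in Ctrl_HF (edgeR quasi-likelihood test, Benjamini-Hochberg adjusted p = 0.00253). It was the only 1 of the 4 factors called. The 4 ran from 0.55 to 2.60 with a median of 0.67. Reads of the transgene and of the mouse's own genes were not told apart here.

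In chow-fed ventricle the cytosolic mRNAs were the more abundant class. Levels between genes are given as CPM per kilobase of the principal transcript. The median member of the cytosolic class stood at 18.8 CPM per kb and that of the mitochondrial class at 7.94. The cytosolic range ran from 6.41 for Cars, the cysteinyl enzyme, to 41.1 for Kars. The mitochondrial range ran from 2.05 for Mars2, the methionyl enzyme, to 41.8 for Lars2, the leucyl enzyme. The value of Mars2 rests on an annotated length of 11294 bp. In CPM its Ctrl mean was 23.1, above the 5.19 of the prolyl gene Pars2.

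The 4 highest cytosolic members in Ctrl were the lysyl gene Kars (41.1 ± 0.670 CPM per kb, SD, n = 3), Eprs (37.2 ± 2.57), the aspartyl gene Dars (36.5 ± 0.594) and the glycyl gene Gars (32.1 ± 0.671). Eprs and Dars differed by less than the SD of Eprs. Kars and Gars, the genes that serve both compartments, were thus both among these 4. The 4 highest mitochondrial members were Lars2 (41.8 ± 36.5 CPM per kb), the isoleucyl gene Iars2 (27.8 ± 0.674), the phenylalanyl gene Fars2 (23.7 ± 3.23) and the cysteinyl gene Cars2 (19.9 ± 1.89). The SD of Lars2 was larger than its distance from each of the other 3.

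Pairs of a cytosolic and a mitochondrial gene were compared for 13 amino acids. In 8 of these 13 pairs the cytosolic gene had the higher level per kilobase in Ctrl. The factor was 8.87 for methionine, 7.39 for tryptophan and 6.21 for asparagine. These factors depend on annotated length, which was 2939 bp for Mars and 11294 bp for Mars2. Before division by length the Ctrl means were 53.4 CPM for Mars and 23.1 for Mars2. They were 41.6 CPM for Wars and 13.6 for Wars2, and 74.0 CPM for Nars and 16.4 for Nars2. In the other 5 pairs, for cysteine, threonine, leucine, isoleucine and tyrosine, the mitochondrial gene was the higher one. For tyrosine this held only per kilobase, since Yars had a Ctrl mean of 34.5 CPM and Yars2 of 24.2. For cysteine the cytosolic level was 0.322 of the mitochondrial level and for threonine 0.365, and for both the 3 libraries of the 2 genes did not overlap. The leucine pair overlapped because Lars2 ran below and above Lars in different Ctrl libraries.

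**Figure D1:**
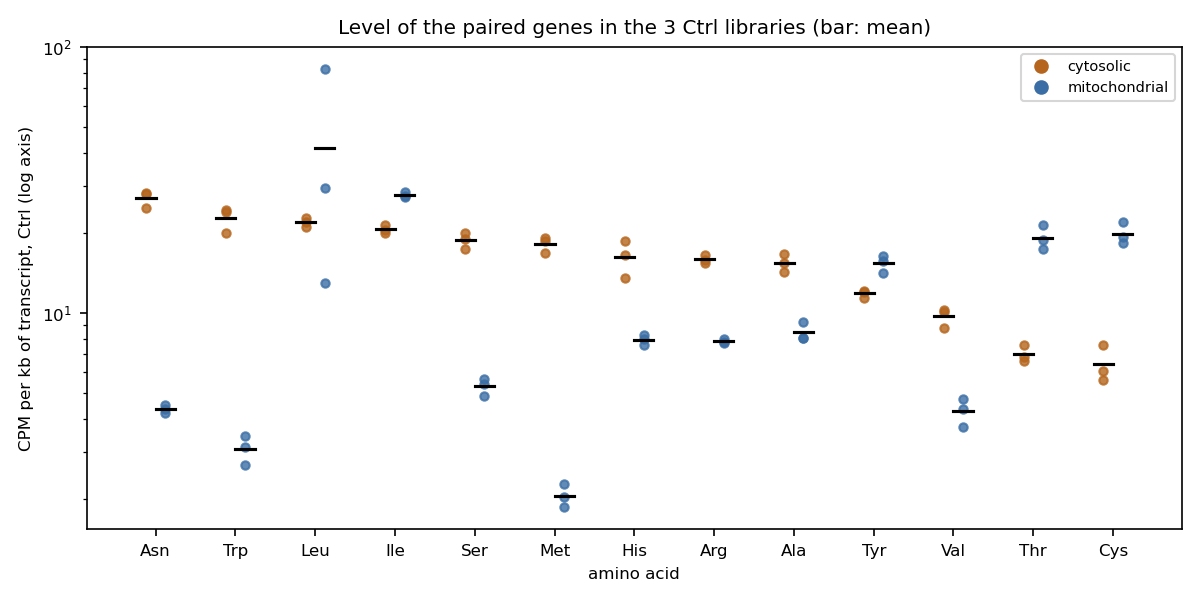
Level of each cytosolic gene and its mitochondrial counterpart in the 3 Ctrl libraries, in CPM per kilobase of transcript on a log axis, by amino acid in the order of the cytosolic level. Points are libraries and bars are means; the cytosolic gene is the higher one in 8 of 13 pairs, and the 3 points of Lars2 (Leu) spread widest.

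Ctrl_HF was set against Ctrl to ask what the diet and L-NAME changed in hearts without the transgene. Of the cytosolic class 17 of 21 members had a fold change above 0 and 4 below, with a median log2 fold change of 0.21 against 0.01 over all tested genes. Of the mitochondrial class 2 of 17 lay above 0 and 15 below, with a median of -0.13. Over all genes 51.5% lay above 0. A gene was called where its adjusted p was under 0.05, which held for 3.61% of all genes (1.79% higher and 1.82% lower). By this test 1 cytosolic member rose, the asparaginyl gene Nars, and 0 mitochondrial members were called. At an unadjusted p under 0.05 there were 6 cytosolic members higher and 1 lower, and 0 mitochondrial members higher and 5 lower, against 10.9% of all genes higher and 9.69% lower. DESeq2 in place of edgeR called 2 cytosolic members (Nars and Eprs) and 1 mitochondrial member, where it called 6.64% of all genes.

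**Figure D2:**
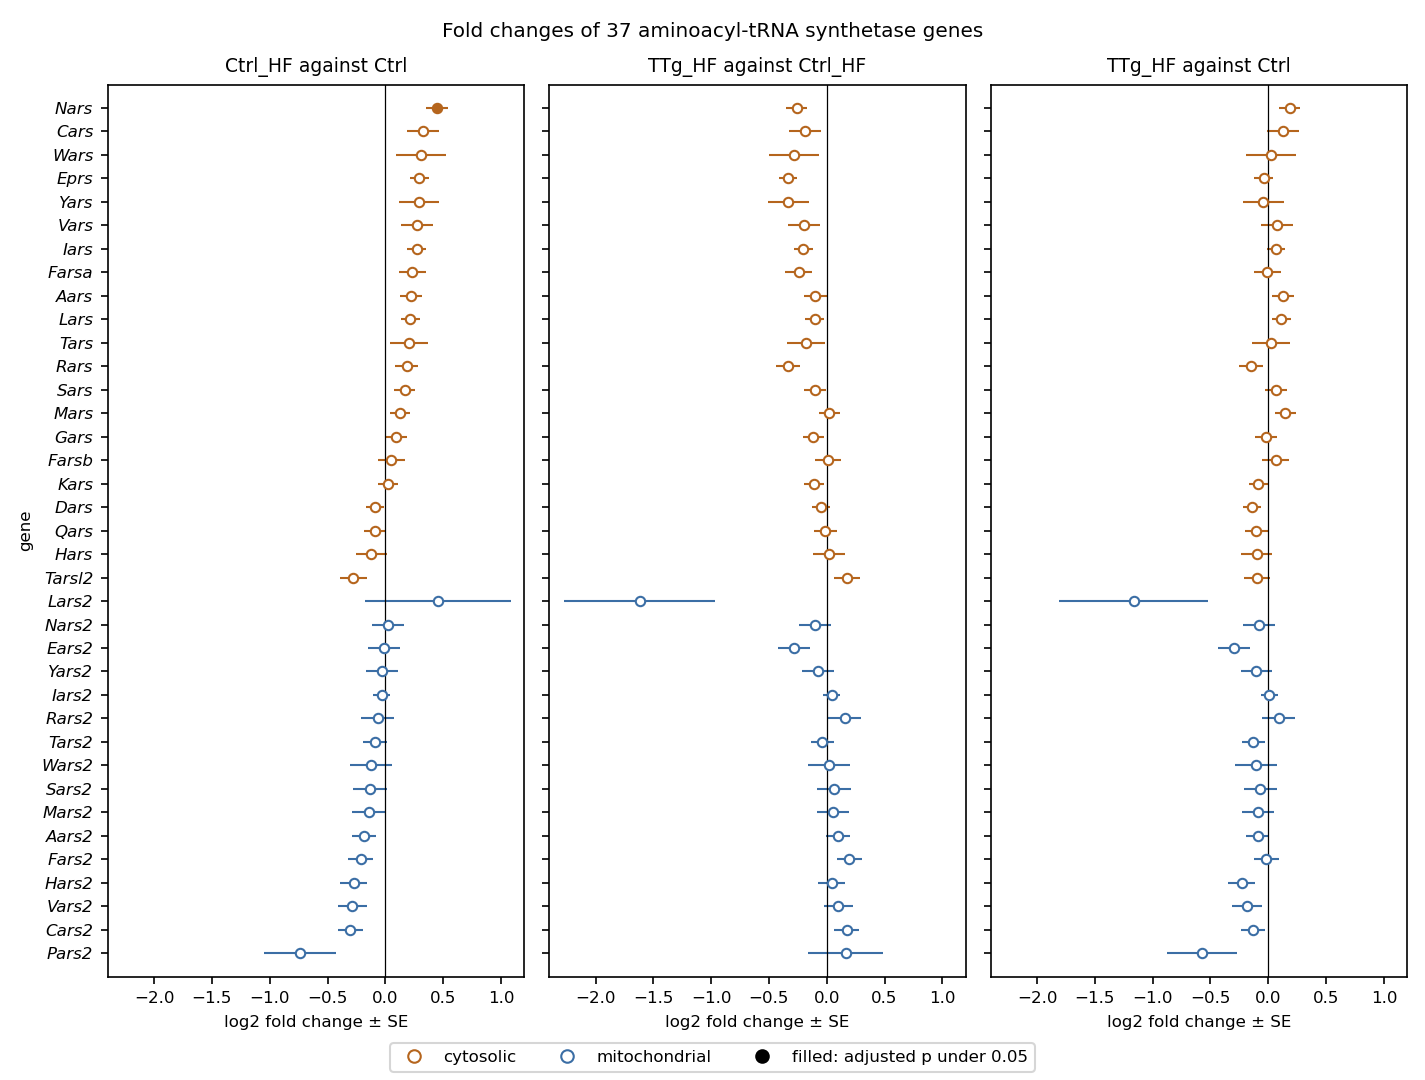
Log2 fold change ± SE of 37 of the genes (edgeR quasi-likelihood fit to all 9 libraries) in each of the 3 comparisons, with genes ordered by the first comparison within each class. In the first panel 17 of 21 cytosolic genes lie right of 0 and 14 of the 16 mitochondrial genes plotted lie left of it; Nars is the only filled point, and Lars2 has the widest bars.

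Nars had 77.5, 67.9 and 76.7 CPM in the Ctrl libraries, 103, 109 and 91.2 CPM in Ctrl_HF and 83.3, 80.7 and 88.5 CPM in TTg_HF. All 3 Ctrl_HF libraries lay above all others, and the TTg_HF libraries lay between the groups without overlap with either. Nars rose 1.36-fold in Ctrl_HF against Ctrl (log2 fold change 0.45, SE 0.09, edgeR adjusted p = 0.0281). The call was lost without Ctrl replicate 2 (edgeR adjusted p = 0.134), without Ctrl replicate 3 (0.0762), without Ctrl_HF replicate 2 (0.0735) and without TTg_HF replicate 2 (0.0549), and in a fit to the 2 groups alone (0.0840). The fold change stayed between 0.39 and 0.51 on the log2 scale in all of these.

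Eprs (chr1:185363044-185428360, GRCm38) was the next cytosolic member by p. It had 168, 186 and 193 CPM in Ctrl, 223, 235 and 214 CPM in Ctrl_HF and 176, 187 and 169 CPM in TTg_HF. The Ctrl_HF libraries lay above all 6 others, and Ctrl and TTg_HF overlapped. Its log2 fold change in Ctrl_HF against Ctrl was 0.30 (SE 0.08, edgeR adjusted p = 0.0703), short of the threshold, and DESeq2 gave an adjusted p of 0.0274.

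Iars, the cytosolic isoleucyl gene, had 94.5, 91.0 and 88.5 CPM in Ctrl, 106, 120.1 and 104 CPM in Ctrl_HF and 97.0, 95.5 and 94.4 CPM in TTg_HF. Here too the Ctrl_HF libraries were the 3 highest (log2 fold change against Ctrl 0.27, SE 0.08, edgeR adjusted p = 0.0932). Libraries of Ctrl_HF also lay above those of Ctrl without overlap for the leucyl gene Lars (0.22, edgeR adjusted p = 0.157), the alanyl gene Aars (0.22, 0.218) and the seryl gene Sars (0.17, 0.344). With Nars, Eprs and Iars these were 6 cytosolic members, where 11.5% of all genes had Ctrl_HF above Ctrl without overlap. Dars was the 1 cytosolic member with Ctrl_HF below Ctrl without overlap (-0.09, edgeR adjusted p = 0.545), where 11.8% of all genes were so placed.

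Yars, Vars and Tars, the tyrosyl, valyl and threonyl genes, had their highest level in Ctrl_HF replicate 2, at 54.8, 60.2 and 42.6 CPM. In the other 8 libraries they reached at most 40.3, 45.3 and 30.7 CPM. Without Ctrl_HF replicate 2 the cytosolic median was 0.12 in place of 0.21, and without Ctrl_HF replicate 3 it was 0.22.

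Wars, the tryptophanyl gene, is known to be induced by interferon gamma, and a single library held its fold change. It had 36.6, 44.5 and 43.9 CPM in Ctrl, 74.2, 39.0 and 41.9 CPM in Ctrl_HF and 42.5, 42.3 and 42.6 CPM in TTg_HF. Only Ctrl_HF replicate 1 stood out, and the other 8 libraries overlapped (log2 fold change 0.31, SE 0.22, edgeR adjusted p = 0.459). In that library the interferon-induced gene Gbp2, chosen after its values were seen, was also highest, at 46.1 CPM against 12.7 to 23.1 in the other libraries. Whether this bears on Wars was not tested.

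Tarsl2 went against its class. It had 39.5, 45.0 and 39.5 CPM in Ctrl, 40.0, 31.1 and 31.4 CPM in Ctrl_HF and 38.3, 39.2 and 38.2 CPM in TTg_HF. Ctrl_HF replicates 2 and 3 were the lowest libraries, while replicate 1 was within the range of Ctrl (-0.28, edgeR adjusted p = 0.198). Without Ctrl_HF replicate 1 the log2 fold change of Tarsl2 was -0.40 and passed the threshold. In that fit 1122 of all genes passed in Ctrl_HF against Ctrl, against 458 with all 9 libraries.

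The genes that serve both compartments had fold changes near 0. Gars had 74.8, 78.0 and 76.6 CPM in Ctrl and 75.9, 91.5 and 77.7 CPM in Ctrl_HF, with a log2 fold change of 0.10 (edgeR adjusted p = 0.601). Kars had 81.3, 82.1 and 83.9 CPM in Ctrl and 84.5, 91.2 and 76.1 CPM in Ctrl_HF, with a log2 fold change of 0.02. Both groups overlapped for both genes. Without Gars and Kars the median of the remaining 19 cytosolic members was 0.22.

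The cytosolic class was also split by structure and assembly. Among the 8 genes for ligases of the multi-synthetase complex, an assembly of synthetases held together by scaffold proteins, 6 lay above 0 with a median of 0.16. Outside the complex 11 of 13 lay above 0 with a median of 0.22. The 9 cytosolic enzymes of structural class I had a median of 0.27 with 8 above 0, and the 11 of class II a median of 0.10 with 8 above 0. These subsets overlap in range, and no difference between them was tested.

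The mitochondrial members described next stayed short of the threshold. Cars2 had 34.9, 41.8 and 36.8 CPM in Ctrl, 29.0, 30.0 and 33.0 CPM in Ctrl_HF and 37.5, 32.9 and 33.4 CPM in TTg_HF. Ctrl_HF lay below Ctrl without overlap, and TTg_HF overlapped both (log2 fold change of Ctrl_HF against Ctrl -0.30, SE 0.11, edgeR adjusted p = 0.144). Hars2, the histidyl gene, had 27.6, 26.6 and 25.3 CPM in Ctrl, 21.4, 19.9 and 24.3 CPM in Ctrl_HF and 23.7, 20.4 and 23.6 CPM in TTg_HF. Here all 6 treated libraries lay below Ctrl (-0.27, SE 0.12, edgeR adjusted p = 0.208).

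The valyl gene Vars2 (-0.28, edgeR adjusted p = 0.236) and the alanyl gene Aars2 (-0.19, 0.330) were likewise lower in Ctrl_HF without overlap. In total 5 of the 17 mitochondrial members were so placed, as were 11.8% of all genes. Pars2, the prolyl gene, had the most negative fold change of the class (-0.74, SE 0.31, edgeR adjusted p = 0.211), but its levels of 2.19 to 6.81 CPM rest on few counts and its groups overlapped. Iars2 showed almost no difference, at 156, 149 and 151 CPM in Ctrl and 152, 148 and 147 CPM in Ctrl_HF. Its exons share 2034 bp with Rab3gap2 on the opposite strand, or 22.9% of its exon length. No source used here says whether the counting used strand, so reads of such overlaps cannot be assigned here. Hars and Hars2 share 195 bp in the same way. The cytosolic gene Aars shares 1326 bp, or 14.3% of its exon length, with Exosc6 on the same strand. Exosc6 had 0 counts in every library, and reads of that stretch cannot be assigned by strand.

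**Figure D3:**
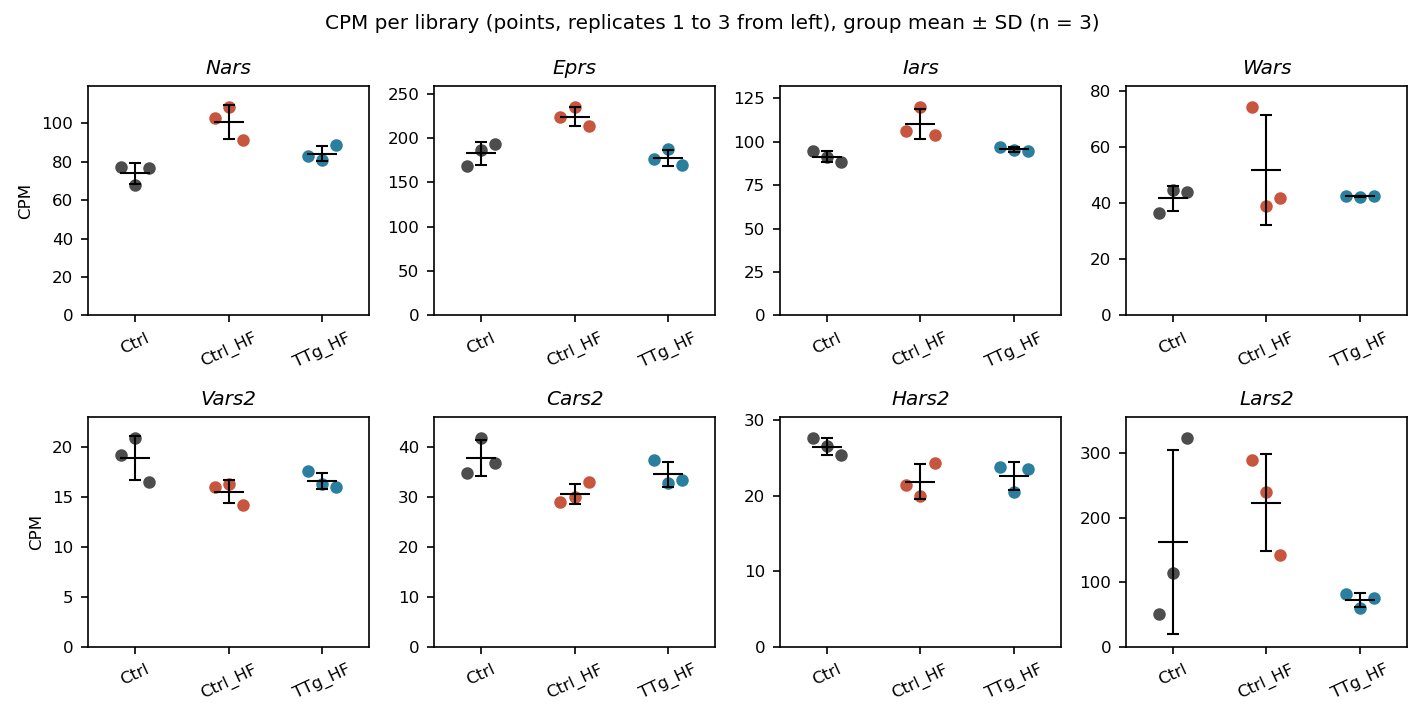
CPM of 8 members in each of the 9 libraries (points, replicates 1 to 3 from left) with the group mean and SD (n = 3), on axes that start at 0. Ctrl_HF stands above the other groups for Nars, Eprs and Iars; Ctrl stands above both treated groups for Hars2; Wars is high in 1 library, and Lars2 ranges from 50.7 to 323 CPM within Ctrl.

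Lars2 (chr9:123366927-123462666, GRCm38) varied most between libraries of a group. It had 50.7, 115 and 323 CPM in Ctrl, 289, 239.5 and 142 CPM in Ctrl_HF and 81.6, 60.3 and 76.3 CPM in TTg_HF. The Ctrl libraries alone ran over the whole range of the 9, and TTg_HF lay below Ctrl_HF without overlap. Its pooled SD on the log2 scale was 0.84, at percentile 98.0 of all tested genes, where the median gene had 0.19 and the next highest mitochondrial member, Pars2, had 0.39. The log2 fold change was 0.46 in Ctrl_HF against Ctrl (edgeR adjusted p = 0.739) and -1.62 in TTg_HF against Ctrl_HF (SE 0.65, edgeR adjusted p = 0.331).

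Within single libraries the classes were compared by each gene's log2 difference from its own Ctrl mean. The cytosolic median lay 0.28, 0.39 and 0.27 above the mitochondrial median in the 3 Ctrl_HF libraries. In the TTg_HF libraries it lay 0.10, 0.14 and 0.20 above it, and in the Ctrl libraries -0.05, 0.03 and 0.01. The 3 groups did not overlap in this difference, with Ctrl_HF highest and TTg_HF between. The Ctrl libraries themselves set each gene's Ctrl mean, so their values lie near 0 by construction. Their separation from the other groups is therefore partly built in. The mitochondrial medians were -0.20, -0.14 and -0.15 in Ctrl_HF and -0.14, -0.11 and -0.15 in TTg_HF, while the cytosolic medians were 0.08, 0.26 and 0.12 in Ctrl_HF and -0.04, 0.04 and 0.05 in TTg_HF. The median over all genes lay between -0.002 and 0.012 in every library. No p is given for these medians, since the genes were chosen with results of these libraries known.

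**Figure D4:**
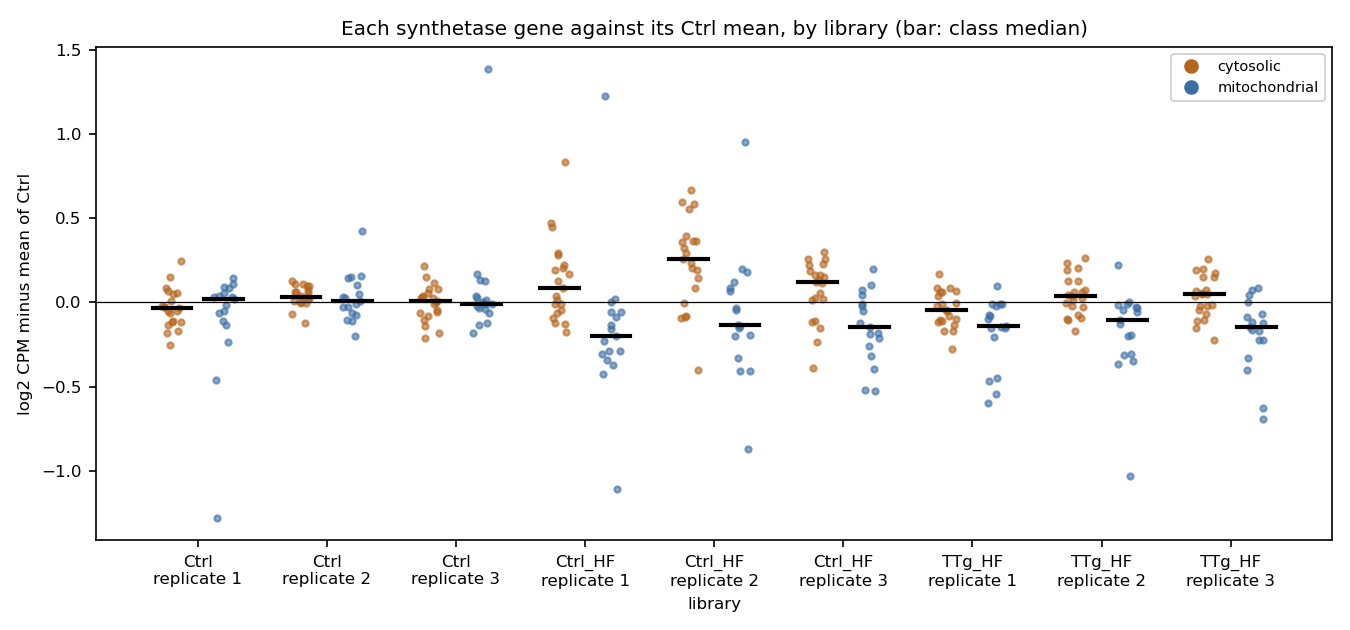
Log2 CPM of each member minus its mean in Ctrl, by library, for the cytosolic and the mitochondrial class; points are genes and bars are class medians. In Ctrl_HF the cytosolic bars lie at 0.08 to 0.26 and the mitochondrial bars at -0.20 to -0.14, and in TTg_HF the cytosolic bars lie at -0.04 to 0.05 while the mitochondrial bars stay at -0.15 to -0.11.

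In summed levels the cytosolic class held 1243, 1299.8 and 1288 CPM in Ctrl and 1436, 1527 and 1359 CPM in Ctrl_HF. It held 1249, 1317 and 1306 CPM in TTg_HF, so Ctrl_HF lay above both other groups. The mitochondrial sum without Lars2, which was set aside after its values were seen, was 505, 521 and 511 CPM in Ctrl, 459.7, 473 and 465 CPM in Ctrl_HF and 477, 481 and 487 CPM in TTg_HF. Both treated groups lay below Ctrl in this sum. With Lars2 the sum was 556, 636 and 834 CPM in Ctrl, 749, 712 and 607 CPM in Ctrl_HF and 559, 541 and 563 CPM in TTg_HF, so Ctrl_HF lay within the range of Ctrl and TTg_HF overlapped Ctrl.

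The 13 pairs are made of members counted above, so they set out the same fold changes by amino acid and are no separate support. In Ctrl_HF against Ctrl the cytosolic gene had the higher fold change in 12 of 13 pairs, the exception being leucine (-0.24) with its variable Lars2. The differences in log2 fold change were 0.62 for cysteine, 0.56 for valine, 0.43 for tryptophan, 0.42 for asparagine and 0.41 for alanine, and the smallest of the 12 was 0.15 for histidine. The ratio of the cytosolic to the mitochondrial gene was higher in all Ctrl_HF libraries than in all Ctrl libraries for 7 of 13 pairs. How often ratios of other gene pairs separate in this way was not computed. In TTg_HF against Ctrl the cytosolic gene had the higher fold change in 12 of 13 pairs as well. In TTg_HF against Ctrl_HF it did so in 1 of 13. For valine the log2 ratio was 1.13, 0.984 and 1.125 in Ctrl, 1.48, 1.86 and 1.49 in Ctrl_HF and 1.24, 1.28 and 1.48 in TTg_HF. The asparagine pair read 2.27, 1.98 and 2.21 in Ctrl and 2.76, 2.59 and 2.38 in Ctrl_HF.

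TTg_HF was set against Ctrl_HF to ask what the transgene changed under the same diet and L-NAME. This comparison shares the Ctrl_HF libraries with the one before, so the values stand side by side and are not counted as independent. Of the cytosolic class 4 members lay above 0 and 17 below, with a median of -0.11 against -0.00 over all genes, of which 49.9% lay above 0. Of the mitochondrial class 12 lay above 0 and 5 below, with a median of 0.04. By edgeR 0 members of either class were called, where 0.0868% of all genes were (0.0474% higher and 0.0395% lower). At an unadjusted p under 0.05 there were 4 cytosolic members lower (Eprs, Rars, Nars and Iars) and 1 mitochondrial member lower (Lars2), with 6.08% of all genes higher and 8.18% lower. DESeq2 called Eprs alone, 1 of 38 members, where it called 2.78% of all genes. The cytosolic median was -0.06 without Ctrl_HF replicate 2, -0.18 without Ctrl_HF replicate 3 and -0.18 without Gars and Kars. The mitochondrial median was 0.06 without TTg_HF replicate 2 and 0.03 without TTg_HF replicate 3.

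Eprs, with the library values given above, was lower in all TTg_HF than in all Ctrl_HF libraries (-0.34, SE 0.08, edgeR adjusted p = 0.120; DESeq2 adjusted p = 0.0180). Rars, the arginyl gene, had 32.4, 35.0 and 33.3 CPM in Ctrl, 33.3, 41.1 and 40.1 CPM in Ctrl_HF and 30.9, 29.8 and 30.1 CPM in TTg_HF. The TTg_HF libraries were the 3 lowest of the 9 (-0.33 against Ctrl_HF, SE 0.10, edgeR adjusted p = 0.189). Without Ctrl_HF replicate 1 Rars passed the threshold, at -0.42 with an edgeR adjusted p of 0.0332. In that fit 665 of all genes passed in this comparison, against 11 with all 9 libraries.

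Nars gave -0.26 (SE 0.09, edgeR adjusted p = 0.238) and Iars -0.20 (edgeR adjusted p = 0.282). With Farsa (-0.24, edgeR adjusted p = 0.371) these were the 5 cytosolic members with TTg_HF below Ctrl_HF without overlap, where 9.53% of all genes were so placed lower and 9.31% higher. In the mitochondrial class Lars2 was lower and Fars2 higher without overlap. Fars2 had 44.8, 45.3 and 40.1 CPM in Ctrl_HF and 49.5, 49.4 and 49.96 CPM in TTg_HF (0.20, edgeR adjusted p = 0.445), but Ctrl libraries of 42.4, 53.6 and 54.9 CPM ran on both sides of these.

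Ears2, the mitochondrial glutamyl gene, had 14.6, 12.8 and 13.1 CPM in Ctrl, 13.7, 14.3 and 12.2 CPM in Ctrl_HF and 9.82, 12.3 and 10.7 CPM in TTg_HF. TTg_HF overlapped Ctrl_HF and lay below Ctrl (-0.28 against Ctrl_HF, edgeR adjusted p = 0.392; -0.30 against Ctrl, edgeR adjusted p = 0.559).

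TTg_HF against Ctrl compares treated transgenic mice with untreated mice and shares libraries with both comparisons above. The cytosolic class was evenly placed, with 11 members above 0 and 10 below and a median of 0.03, where 49.7% of all genes lay above 0. The mitochondrial class had 2 members above 0 and 15 below with a median of -0.10. By edgeR 0 members were called, where 0.466% of all genes were (0.284% higher and 0.182% lower), and DESeq2 also called 0, against 1.47% of all genes. At an unadjusted p under 0.05 there was 1 mitochondrial member lower and 0 cytosolic members, against 5.04% of all genes higher and 4.37% lower.

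Without overlap between TTg_HF and Ctrl there were 3 cytosolic members higher (Nars, Lars and Mars) and 4 lower (Dars, Kars, Rars and Tarsl2), and 3 mitochondrial members lower, among them Ears2 and Hars2. Of all genes 9.23% were so placed higher and 9.48% lower. Dars had 77.9, 80.4 and 79.6 CPM in Ctrl, 75.9, 74.3 and 73.4 CPM in Ctrl_HF and 73.7, 74.3 and 67.8 CPM in TTg_HF, so all 6 treated libraries lay below Ctrl by a small step (-0.14 in TTg_HF, edgeR adjusted p = 0.627). Mars, the methionyl gene, had 49.3, 56.2 and 54.8 CPM in Ctrl and 56.7, 61.4 and 59.3 CPM in TTg_HF (0.15, edgeR adjusted p = 0.680).

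Genes of the amino acid response were measured beside the synthetases, as a list of 30 of which 28 could be tested. In Ctrl_HF against Ctrl 24 of 28 lay above 0 with a median of 0.31, and the 4 below 0 reached -1.06. At an unadjusted edgeR p under 0.05 there were 11 higher and 2 lower, against 10.9% of all genes higher and 9.69% lower. By the edgeR test with adjustment 7 genes of the list rose, where 1.79% of all genes did. They included Mthfd2 of mitochondrial one-carbon metabolism (1.93, adjusted p = 0.0126), Psat1 of serine synthesis (1.75, adjusted p = 0.0131), the asparagine synthetase Asns (1.53, adjusted p = 0.0156) and the hormone gene Gdf15 (1.64, adjusted p = 0.0152). Atf5 (0.79, adjusted p = 0.0214) and the cationic amino acid transporter Slc7a1 (0.52, adjusted p = 0.0375) rose as well. All 7 calls were lost without Ctrl replicate 2, with edgeR adjusted p from 0.0714 to 0.151. Mthfd2, Psat1 and Gdf15 were also lost without Ctrl replicate 3, and Asns, Psat1 and Atf5 without Ctrl_HF replicate 3. Atf5 was lost without Ctrl replicate 1 (0.0638) as well, and with the 2 groups alone Atf5 (0.0555) and Gdf15 (0.0503) were lost. Slc7a1 was lost in 10 of the 15 alternatives.

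Atf4 itself had 75.6, 55.0 and 62.6 CPM in Ctrl, 122, 148 and 98.3 CPM in Ctrl_HF and 81.2, 84.9 and 68.6 CPM in TTg_HF. It rose by 0.93 in Ctrl_HF against Ctrl (edgeR adjusted p = 0.0154), a call lost without Ctrl replicate 2 (0.0732), without Ctrl replicate 3 (0.0679) or with the 2 groups alone (0.0503). Ctrl_HF held the 3 highest libraries of Atf4, as it did for Nars, Eprs and Iars but not for Lars, Aars and Sars. How many of all genes are so placed was not computed, and a link between Atf4 and the synthetases was not tested. In TTg_HF against Ctrl_HF Atf4 gave -0.65 (edgeR adjusted p = 0.127), and of the list 9 lay above 0 and 19 below, with a median of -0.11. The list ran from -0.92 to 1.26 in that comparison. At an unadjusted edgeR p under 0.05 there were 2 higher and 7 lower, against 6.08% of all genes higher and 8.18% lower.

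Slc7a1 had 61.9, 49.8 and 62.7 CPM in Ctrl, 90.0, 89.8 and 71.2 CPM in Ctrl_HF and 48.5, 46.3 and 45.2 CPM in TTg_HF. It was the 1 gene of the list that fell in TTg_HF against Ctrl_HF (-0.84, edgeR adjusted p = 0.0345), with all TTg_HF libraries below all others. That call was lost without Ctrl_HF replicate 2 (0.0581), TTg_HF replicate 2 (0.172) or TTg_HF replicate 3 (0.201), and with the replicate number as a block (0.0545) or the 2 groups alone (0.0663). In TTg_HF against Ctrl 21 of the 28 lay above 0 with a median of 0.20 and 0 were called by edgeR.

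The 5 cytosolic synthetase genes with a TGATGNAA match had a median log2 fold change of 0.22 in Ctrl_HF against Ctrl, and the 9 with a window and no match had 0.05. The cytosolic members without a window are in neither median, and the whole class of 21 had a median of 0.21. These medians describe the genes in each set, and no difference between them was tested.

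Factors that act beside the synthetases were read from 3 further lists. Of 13 partners and editing factors of aminoacyl-tRNA 3 lay above 0 and 10 below in Ctrl_HF against Ctrl, with a median of -0.12 and 0 called by edgeR. The deacylase gene Dtd2 (-0.61, edgeR adjusted p = 0.0975) and the editing factor gene Aarsd1 (-0.80, edgeR adjusted p = 0.155) came first by p. Aarsd1 gave 0.82 in TTg_HF against Ctrl_HF (edgeR adjusted p = 0.238). The scaffold genes of the multi-synthetase complex gave 0.12 for Aimp1, 0.12 for Aimp2 and 0.20 for Eef1e1 in Ctrl_HF against Ctrl, with SEs of 0.13, 0.21 and 0.28.

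Of 24 tested genes for mitochondrial translation factors and tRNA modification 6 lay above 0 and 18 below in Ctrl_HF against Ctrl, with a median of -0.14 and 0 called by edgeR. The methyltransferase gene Trmt5 (-0.67, edgeR adjusted p = 0.0991) and Hsd17b10, a subunit of mitochondrial RNase P (-0.27, edgeR adjusted p = 0.111), came first by p. The same list had 16 above 0 and 8 below with a median of 0.03 in TTg_HF against Ctrl_HF. It had 5 above and 19 below with a median of -0.10 in TTg_HF against Ctrl.

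Of 27 cytosolic initiation and elongation factors 18 lay above 0 in Ctrl_HF against Ctrl with a median of 0.10. The initiation factor gene Eif5 (0.83, edgeR adjusted p = 0.0119) and Eef1a1, which carries aminoacyl-tRNA to the ribosome (0.42, edgeR adjusted p = 0.0122), rose. Both calls were lost without Ctrl replicate 2 (0.0647 and 0.0732), that of Eif5 also without Ctrl replicate 3 (0.0555) and that of Eef1a1 with the 2 groups alone (0.0520). In TTg_HF against Ctrl_HF 22 of the 27 lay below 0, with a median of -0.08, and Eif5 gave -0.73 (edgeR adjusted p = 0.0861).

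Markers of cell types also differed in level between the groups. The summed level of 6 cardiomyocyte markers was 50082 to 57506 CPM in Ctrl, 44546 to 47353 in Ctrl_HF and 45720 to 48709 in TTg_HF. All 6 lay below 0 in Ctrl_HF against Ctrl with a median of -0.27 and 0 called by edgeR. At an unadjusted edgeR p under 0.05 there were 4 lower, where 9.69% of all genes were. In TTg_HF against Ctrl their median was -0.25, and all 6 were lower at that p, where 4.37% of all genes were. Fibroblast markers summed to 733 to 848, 789 to 1107 and 869 to 1043 CPM in the same order of groups, with 6 of 6 above 0 in Ctrl_HF against Ctrl. Macrophage markers summed to 159 to 175, 220 to 274 and 223 to 247 CPM, and Mrc1 rose (0.84). Endothelial markers (758 to 924, 833 to 905 and 782 to 963 CPM) and smooth muscle and pericyte markers (758 to 878, 771 to 812 and 722 to 860 CPM) overlapped between groups. Other markers were higher in Ctrl_HF than in both other groups by their median, as the cytosolic synthetases were. The 4 red blood cell markers had a median log2 fold change of 0.68 for Ctrl_HF over Ctrl and of -0.87 for TTg_HF over Ctrl_HF, with sums of 420 to 646, 759 to 927 and 187 to 820 CPM. The 4 atrial markers had medians of 0.46 and -0.66, with sums of 45.4 to 86.2, 77.2 to 159 and 56.1 to 76.4 CPM. Of 6 lymphocyte and neutrophil markers 2 could be tested, S100a8 and S100a9, with medians of 1.09 and -1.92, and the 6 summed to 2.70 to 5.81, 6.29 to 7.39 and 2.23 to 2.79 CPM. In these 3 lists 0 genes were called by edgeR in either comparison, and at an unadjusted p under 0.05 there were 2 genes higher in the first and 3 lower in the second. The 4 adipocyte markers summed to at most 2.89 CPM and were not tested. Cardiomyocyte markers were at their lower level in both treated groups, as were the mitochondrial synthetases, but the part of any of these cell types in the synthetase values was not tested. In whole ventricle fewer cells of a type and less RNA per cell cannot be told apart.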

How the data were processed

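The 9 libraries came from whole-ventricle RNA, depleted of ribosomal RNA and made directional, per the labels' protocols. In the deposited table each library has 3 columns. Whole-number counts, unscaled, come first, called expression values per the file headers. The second is a normalized signal that the authors made, tested here to be the count times 1 factor per library. The third is log2 of that signal plus 1, deposited as transformed values. Reads were placed on mm10, per the submitters' processing notes. No source used here names the aligner, the counting program or its use of strand. Columns left out numbered 0.

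Counts were filtered with filterByExpr of edgeR 4.0.16 (minimum count 10, minimum total 15), which kept 12670 genes and 99.9% of counts, and normalised by TMM. A quasi-likelihood model with group as its only term was fitted to all 9 libraries in R 4.3.3, with two-sided F tests, a threshold of 0.05 after Benjamini-Hochberg adjustment over the 12670 genes. The median biological coefficient of variation was 0.131. CPM is the count per 1000000 of the TMM-scaled library total, and lengths are those of principal transcripts in GENCODE vM21. An exact permutation test between groups of 3 has 0.1 as its smallest p. The script was tested on simulated data.

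Members and lists were chosen with earlier results of these data known. Values per library were given for called members, for the 3 members of each class with the lowest p in each comparison, for Gars, Kars and Tarsl2, and in part for others. A few items are not reported here, and the class counts include every measured member. Alternatives were DESeq2 1.42.0 (its test, and its size factors), the authors' factors, no filter on low counts, the 2 groups alone, the replicate number as a block, and each library left out.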

Additional observations from a re-analysis of the deposited data

How the results depend on the processing

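No called value changed sign under any alternative run. The cytosolic median in Ctrl_HF against Ctrl ranged from 0.12 to 0.22 over the fits that left out 1 library, with 0.12 without Ctrl_HF replicate 2, and the mitochondrial median from -0.17 to -0.11. In TTg_HF against Ctrl_HF the cytosolic median ran from -0.18 to -0.06 and the mitochondrial median from 0.03 to 0.06. In TTg_HF against Ctrl they ran from -0.03 to 0.06 and from -0.15 to -0.10. Called cytosolic members in Ctrl_HF against Ctrl numbered 2 with the DESeq2 test, 0 with the 2 groups alone and 0 to 2 with 1 library left out. Called mitochondrial members there numbered 1 with DESeq2 and 0 to 1 with 1 library left out. In TTg_HF against Ctrl_HF the called cytosolic members numbered 1 with DESeq2 and 0 to 1 with 1 library left out. Counts over all genes moved more. For Ctrl_HF against Ctrl 458 genes were called, 841 with DESeq2, 126 with the 2 groups alone and 85 (without Ctrl replicate 2) to 1122 (without Ctrl_HF replicate 1) with 1 library left out. For TTg_HF against Ctrl_HF 11 were called, 339 with DESeq2, 109 without the filter, 0 by edgeR with the 2 groups alone and 2 (without TTg_HF replicate 2) to 665 (without Ctrl_HF replicate 1) with 1 library left out. For TTg_HF against Ctrl 59 were called, 182 with DESeq2, 118 without the filter, 117 with the 2 groups alone and 24 (without Ctrl replicate 2 or TTg_HF replicate 2) to 114 (without Ctrl_HF replicate 1) with 1 library left out. The cause was not tested. Of single-gene values 554 kept their direction and side of the threshold, 41 no longer passed it and 5 newly passed it.

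The labels number replicates 1 to 3 in each group. Same-numbered libraries did not deviate together (correlations of -0.16 to 0.20, not all above 0.1), so the numbers were not taken as pairs. With the replicate number as a block 415, 12 and 52 genes were called in the 3 comparisons, Nars stayed called at 0.45, and the cytosolic and mitochondrial medians in Ctrl_HF against Ctrl were 0.19 and -0.13. With 3 libraries a group Iars, at 0.27 with an SE of 0.08, did not pass the threshold, so differences of the size of the class medians were not detectable for single genes.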

Other observations

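Interferon-induced genes other than those given with Wars were also highest in Ctrl_HF replicate 1, and all were chosen after their values were seen. Gbp3, a guanylate-binding protein, stood at 23.004 CPM there against 2.63 to 7.69 CPM in the other 8 libraries. The transcription factor gene Irf1 stood at 33.4 CPM against 9.89 to 24.7, and the immunity-related GTPase gene Iigp1 at 94.3 CPM against 9.85 to 59.9.

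The transporter subunit gene Slc3a2 had 45.6 ± 6.26 CPM in Ctrl, 61.7 ± 13.2 in Ctrl_HF and 39.3 ± 3.26 in TTg_HF (SD, n = 3), with a log2 fold change of -0.64 in TTg_HF against Ctrl_HF (edgeR adjusted p = 0.121). Atf5, a relative of Atf4, had 48.3 CPM in Ctrl, 83.7 in Ctrl_HF and 81.4 in TTg_HF on average, and its fold change in TTg_HF against Ctrl was 0.75 (edgeR adjusted p = 0.0697).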
